A study of Arabidopsis thaliana with 10 samples.

Results

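The annexin genes ANNAT1 to ANNAT8 of Arabidopsis thaliana were taken as the rows of the deposited expression table whose locus code belongs to annexin 1 to 8, and all 8 were found among 27826 rows. They were compared between 5 arrays of mcu123 roots and 5 arrays of Col-0 roots. The labels call mcu123 an MCU knockout affecting 3 genes and Col-0 the wild type, and both were 20-day-old roots from sterile hydroponic culture with 0.1% sucrose, with days of 16 h light. Each array carried RNA from the pooled roots of several seedlings, and the labels do not say whether pools came from separate growth batches, so errors describe the spread between these pools. The family was selected on the genotype difference of ANNAT3 and ANNAT4, which were already known to be lower in mcu123 on these arrays. Genotype differences of the 8 genes are therefore given as a description, with no p-value.

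Annexins are soluble proteins that bind phospholipid membranes in a calcium-dependent way. In plants they have been linked to calcium entry, vesicle traffic and responses to salt, cold and reactive oxygen. MCU proteins form the pore of the mitochondrial calcium uniporter, so annexins belong to a different part of cellular calcium handling than the mutated genes. ANNAT3 and ANNAT4 are next to each other on chromosome 2, and ANNAT6 and ANNAT7 are next to each other on chromosome 5. The other members are single genes, ANNAT1 and ANNAT5 on chromosome 1 and ANNAT2 and ANNAT8 on chromosome 5.

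The mutated genes were checked first. MCU3 (AT2G23790) ran from 3.76 to 4.47 in mcu123, against 5.76 to 6.32 in Col-0, and MCU1 (AT1G09575) from 2.69 to 3.13 in mcu123, against 4.26 to 4.83 in Col-0 (log2 intensity). MCU2 (AT1G57610) overlapped, at 2.51 to 3.21 in mcu123 and 2.51 to 3.26 in Col-0. All its values lay below the array median of 4.30, so this check does not show whether MCU2 was changed. Of 6 root marker genes 5 had means above the array median of 4.30, and of 6 genes of photosynthetic shoots 2 did. Precision is limited by having 5 arrays per genotype, and with no detection calls a dim value could not be told from background.

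In mcu123 roots the transcripts of the neighbours ANNAT3 and ANNAT4 were about 3-fold lower, while the differences of the other 6 annexins lay between -0.36 and 0.17 on the log2 scale. ANNAT3 averaged 5.80 ± 0.41 in mcu123 and 7.34 ± 0.28 in Col-0, and ANNAT4 averaged 3.92 ± 0.46 in mcu123 and 5.51 ± 0.19 in Col-0 (log2 intensity, mean ± SD, n = 5 each). In linear terms ANNAT3 was 2.908-fold lower and ANNAT4 3.003-fold lower. In pooled roots, fewer cells that express a gene and less of its RNA per cell cannot be told apart.

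ANNAT3 (AT2G38760) measured 6.23, 5.21, 6.08, 5.91 and 5.58 in mcu123 replicates 1 to 5, against 7.68, 7.19, 7.61, 7.15 and 7.09 in Col-0 replicates 1 to 5. Every mcu123 array lay below every Col-0 array, and 0.86 separated the highest mcu123 array (replicate 1) from the lowest Col-0 array (replicate 5). The log2 difference was -1.54 (SE 0.20, 95% interval -1.97 to -1.11).

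ANNAT4 (AT2G38750) has been linked with ANNAT1 and with the SOS2 kinase in the response of Arabidopsis to salt. It measured 4.65, 3.47, 3.94, 3.94 and 3.60 in mcu123 replicates 1 to 5. In Col-0 replicates 1 to 5 it measured 5.61, 5.49, 5.68, 5.56 and 5.19. Its groups did not overlap either, with a gap of 0.54 between mcu123 replicate 1 and Col-0 replicate 5. The log2 difference was -1.59 (SE 0.20, 95% interval -2.02 to -1.15). All Col-0 arrays lay above the array median of 4.30, and 4 of the 5 mcu123 arrays lay below it, replicate 1 being the exception.

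**Figure D1:**
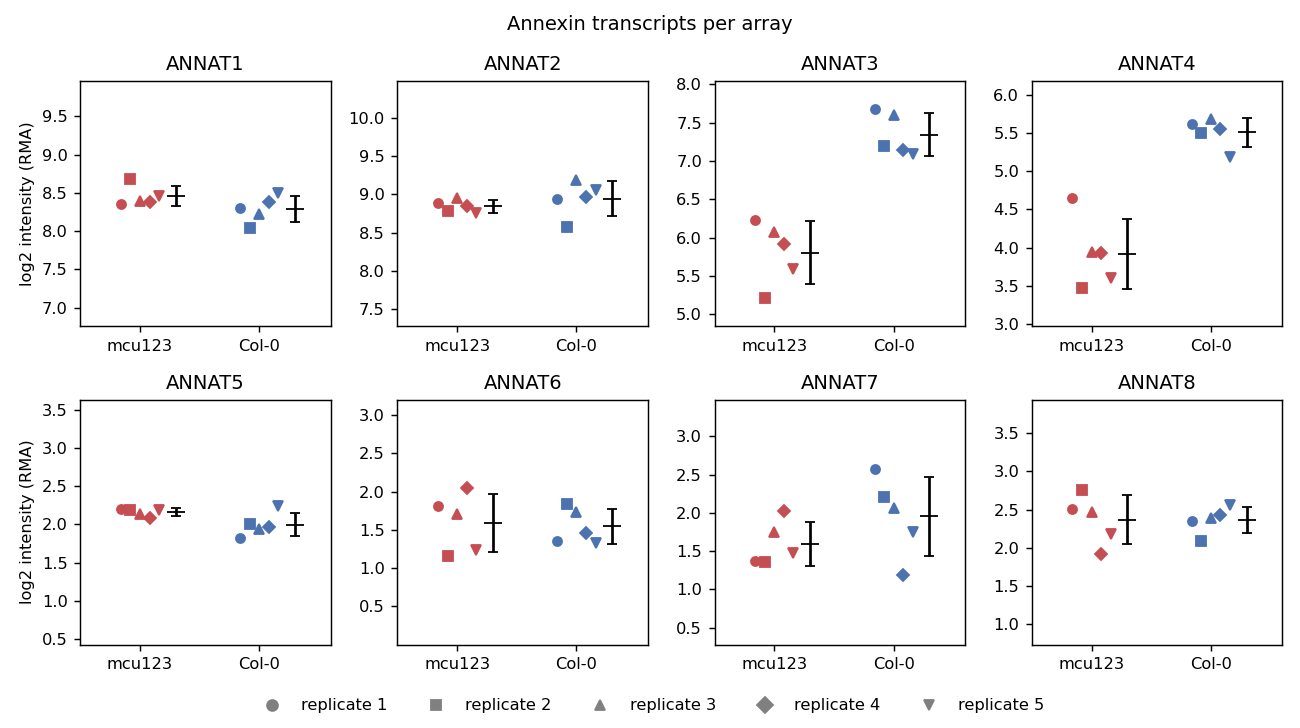
Log2 intensity (RMA) of the 8 annexin genes on each array, with mcu123 on the left of each panel and Col-0 on the right; symbols mark replicates, bars show mean ± SD (n = 5 each), and every panel spans the same number of log2 units. All mcu123 arrays lie below all Col-0 arrays for ANNAT3 and ANNAT4, and the groups overlap for the other 6 genes.

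ANNAT1 (AT1G35720), the most studied plant annexin, is tied to a calcium conductance of root cells activated by reactive oxygen. It measured 8.35, 8.68, 8.40, 8.38 and 8.46 in mcu123 replicates 1 to 5, against 8.31, 8.04, 8.22, 8.38 and 8.50 in Col-0 replicates 1 to 5. The groups overlapped, with the highest array in mcu123 (replicate 2) and the lowest in Col-0 (replicate 2). The log2 difference was 0.17 (SE 0.12, 95% interval -0.09 to 0.42).

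ANNAT2 (AT5G65020), which acts with ANNAT1 in sugar delivery to the Arabidopsis root tip, measured 8.88, 8.78, 8.96, 8.85 and 8.75 in mcu123, against 8.94, 8.57, 9.19, 8.96 and 9.05 in Col-0. The mcu123 values fell inside the range of the Col-0 values. The log2 difference was -0.10 (SE 0.12, 95% interval -0.37 to 0.17). ANNAT1 and ANNAT2 were far above the array median on all 10 arrays.

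The other 4 annexins were dim, with every array below the array median. ANNAT5 (AT1G68090), known for a role in pollen development, averaged 2.158 ± 0.051 in mcu123 and 1.995 ± 0.150 in Col-0. ANNAT8 (AT5G12380) averaged 2.37 ± 0.32 in mcu123 and 2.36 ± 0.17 in Col-0. For both genes the groups overlapped, with log2 differences of 0.16 (95% interval -0.06 to 0.39) for ANNAT5 and 0.0043 (95% interval -0.34 to 0.35) for ANNAT8.

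The second neighbouring pair, ANNAT6 (AT5G10220) and ANNAT7 (AT5G10230), was dim on every array. ANNAT6 ran from 1.16 to 2.05 in mcu123 and from 1.33 to 1.84 in Col-0, a log2 difference of 0.05 (95% interval -0.35 to 0.44). ANNAT7 ran from 1.36 to 2.02 in mcu123 and from 1.19 to 2.57 in Col-0, a log2 difference of -0.36 (95% interval -0.86 to 0.14) that was between -0.55 and -0.21 with single arrays left out. Both pairs of groups overlapped, and Col-0 replicate 4 was the lowest of all arrays for ANNAT7. ANNAT5, ANNAT6 and ANNAT7 were among the dimmest 30% of rows and ANNAT8 lay just above that limit (2.36 against 2.33), so a difference in these 4 genes may not have been measurable.

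**Figure D2:**
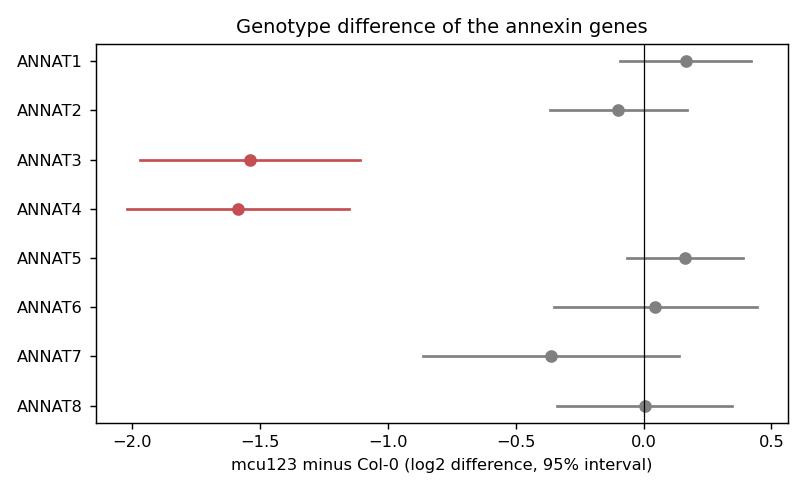
Log2 difference of each annexin gene, mcu123 minus Col-0, with its 95% interval from the limma fit over all rows (n = 5 arrays each). ANNAT3 and ANNAT4, in red, lie at -1.54 and -1.59, and the intervals of the other 6 genes, in grey, include 0.

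In the limma fit over all rows, with Benjamini-Hochberg adjustment and a threshold of 0.05, 2 of the 8 annexins were called lower and 0 were called higher. Of all rows in that fit, 0.0395% were called lower and 0.00359% higher. At an unadjusted p under 0.05 the counts of annexins were also 2 lower and 0 higher, where 4.08% of rows were lower and 3.38% higher. Groups did not overlap for 2 annexins, both lower, against 1.02% of rows with all mcu123 arrays below all Col-0 arrays. Since this contrast brought the family forward, nothing is read from these counts. With Col-0 replicate 1, 3 or 4 or mcu123 replicate 4 or 5 left out, 0 annexins were called, although the log2 differences stayed between -1.59 and -1.46 for ANNAT3 and between -1.59 and -1.51 for ANNAT4 in those fits.

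ANNAT3 and ANNAT4 were then set beside the rest of the family, as a description, since their difference chose the family. The median log2 difference was -1.56 for ANNAT3 and ANNAT4 and 0.03 for the other 6 annexins, beside 0.01 over all rows. ANNAT5 to ANNAT8, 4 of the 6, were dim, so a median near 0 says little of them. Against the bright members ANNAT1 and ANNAT2 alone, the mean of ANNAT3 and ANNAT4 minus the mean of ANNAT1 and ANNAT2 was -3.79 ± 0.45 in mcu123 and -2.19 ± 0.29 in Col-0 (log2, SD, n = 5 each), a shift of -1.597. The mean of the 6 annexins per array was 4.05 to 4.23 in mcu123 and 4.07 to 4.25 in Col-0. The mean of ANNAT3 and ANNAT4 per array was 4.34 to 5.44 in mcu123 and 6.14 to 6.65 in Col-0 with no overlap.

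ANNAT3 and ANNAT4 differed between genotypes by similar amounts, given as a description because this contrast chose both genes. On each array ANNAT4 was read against ANNAT3, and the log2 difference ANNAT4 minus ANNAT3 averaged -1.88 ± 0.22 in mcu123 and -1.84 ± 0.19 in Col-0 (SD, n = 5 each). It ran from -2.14 to -1.58 in mcu123 and from -2.07 to -1.59 in Col-0. The shift of -0.05 between genotypes was smaller than the SD between arrays of either group, which is not the error of the shift. Probes differ between genes, so the sign of this quantity does not rank their RNA amounts.

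Variation between arrays of one genotype was not used to choose the family. After the mean of each genotype was subtracted, ANNAT3 and ANNAT4 deviated to the same side on 9 of 10 arrays, on 5 of 5 in mcu123 and on 4 of 5 in Col-0. Both were highest in mcu123 replicate 1, by 0.43 for ANNAT3 and 0.73 for ANNAT4, and lowest in mcu123 replicate 2, with deviations of -0.59 and -0.45. Col-0 replicates 1 and 3 were above and Col-0 replicate 5 below the genotype mean for both genes. The Pearson correlation of the deviations was 0.83 and Spearman's rho 0.88 over 10 arrays, given as a description. Without mcu123 replicates 1 and 2, the arrays farthest from the median for ANNAT3, the values were 0.80 and 0.81.

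**Figure D3:**
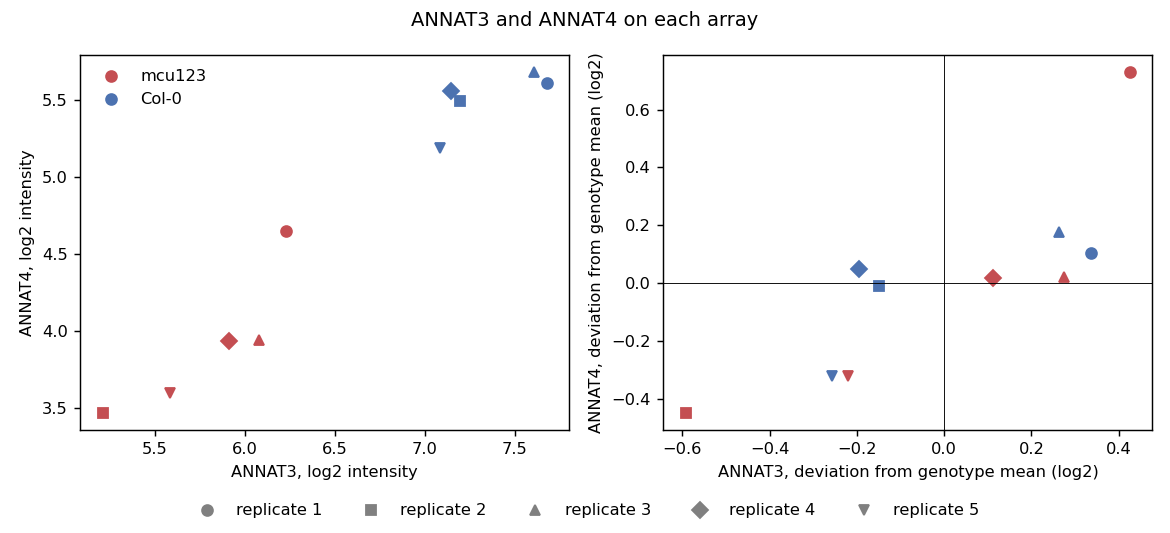
ANNAT4 against ANNAT3 on each of 10 arrays, as log2 intensity on the left and as deviation from the genotype mean on the right; colour gives the genotype and symbols the replicate. The mcu123 arrays form the lower group on the left, and on the right the deviations run together (Pearson 0.83), with mcu123 replicates 1 and 2 at the ends.

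Among the 28 pairs of annexins, ANNAT3 with ANNAT4 had the highest correlation of deviations. The median of the 28 was -0.0018 and 14 were above 0. The second neighbouring pair, ANNAT6 with ANNAT7, was at 0.38, at place 10 of 28. Both of its genes were dim (means of 1.57 and 1.78 over all arrays), so this value says little. ANNAT1 with ANNAT8 came next to the highest (0.67), followed by ANNAT6 with ANNAT4 (0.62) and ANNAT3 (0.59), where ANNAT6 and ANNAT8 were dim. ANNAT1 ran the other way, at -0.58 with ANNAT3, -0.58 with ANNAT4 and -0.78 with ANNAT6, the lowest of the 28. In mcu123 replicate 2, where ANNAT3 and ANNAT4 were lowest, ANNAT1 was highest (8.68). All these values share the same 10 arrays and their joint normalisation.

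**Figure D4:**
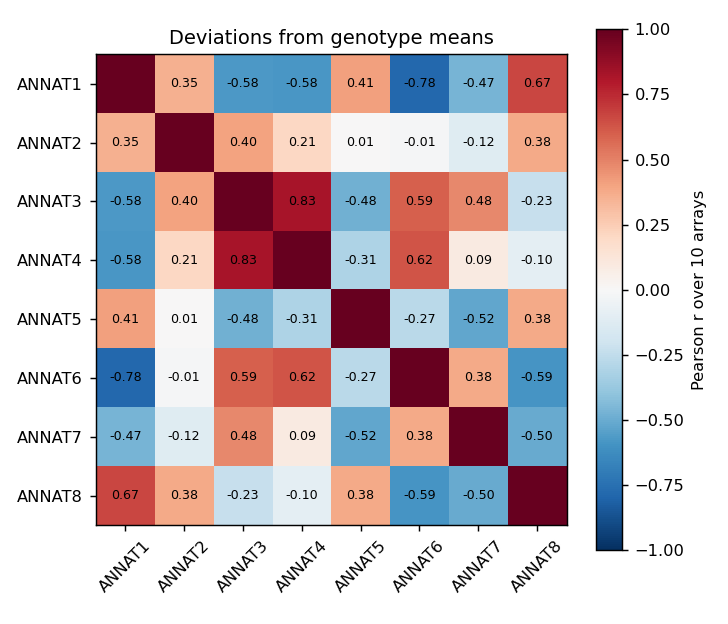
Pearson correlation over 10 arrays between the annexin genes, after subtraction of each genotype's mean; red is positive and blue negative. ANNAT3 with ANNAT4 has the highest value (0.83) and ANNAT1 with ANNAT6 the lowest (-0.78).

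By the same measure, genes were ranked for likeness to ANNAT3 and to ANNAT4 among 13912 other genes above the median of all genes. ANNAT4 had rank 23 for ANNAT3, and ANNAT3 had rank 16 for ANNAT4. Among all 27825 other genes, dim ones included, the ranks were 67 and 77. The 5 closest to ANNAT3 were IPK2a, an inositol polyphosphate kinase (0.94), AT5G35180 (0.93), AT3G50880 (0.91), MOB1-like (0.91) and AT4G09340 (0.89). Their log2 differences between genotypes ran from -0.24 for IPK2a to 0.03 for MOB1-like, and none was called by limma. The 5 closest to ANNAT4 were AT3G13062 (0.89), AT1G16670 (0.89), AT2G34310 (0.87), the F-box gene FBS4 (0.87) and the noncoding RNA AT1G18415 (0.87).

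Of the 5 genes closest to ANNAT4, AT1G16670 was the one called by limma, where 0.0431% of all rows were called in either direction. The 5 genes were picked as the highest of 13912 correlations over 10 arrays, and their likeness to ANNAT4 was not tested. AT1G16670 averaged 6.94 ± 0.29 in mcu123 and 7.91 ± 0.12 in Col-0 (n = 5 each). Its log2 difference was -0.97 (SE 0.14, limma adjusted p = 0.044), and it was called in 4 of 15 other fits. AT2G34310 had a log2 difference of -0.36, FBS4 of 0.30 and AT1G18415 of 0.33, none of them called. AT3G13062 was at 0.03 and was not called either.

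The genes around ANNAT3 and ANNAT4 were examined over 10 genes on each side, in the order of the reference gene table. None of these 20 genes was called by limma, in a table where 0.0431% of rows were called in either direction. An unadjusted p under 0.05 was found for 2 of the 20, both lower, against 4.08% of all rows lower and 3.38% higher. The nearest genes were AT2G38740, at 6.12 ± 0.14 in mcu123 and 6.14 ± 0.18 in Col-0, and EMB2765, at 7.80 ± 0.14 in mcu123 and 7.57 ± 0.17 in Col-0. Their log2 differences were -0.02 (95% interval -0.28 to 0.24) and 0.23 (95% interval -0.02 to 0.49). The fall of ANNAT3 and ANNAT4 thus had no counterpart of that size in the adjacent gene on either side.

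Over the 20 genes, the log2 difference ran from -0.80 to 0.39 with a median of -0.02, and 11 had lower and 9 higher means in mcu123. The ends of that range were AT2G38790, the gene at place 3 on the ANNAT3 side, and MVD1, an enzyme of the mevalonate pathway. AT2G38790 had a wide interval (-1.55 to -0.04) and its groups overlapped, at 3.93 to 5.46 in mcu123 and 4.66 to 6.53 in Col-0. AT2G38800, the next gene, had a log2 difference of -0.26. Its groups did not overlap, with at most 8.71 in mcu123 and at least 8.77 in Col-0. It was the 1 gene of 20 without overlap, against 1.02% of rows for lower and 0.683% for higher. AT2G38790 and AT2G38800 were the genes with an unadjusted p under 0.05 and were not called.

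The surroundings of ANNAT6 and ANNAT7 gave a comparison region. Again none of 20 genes was called, and 3 had an unadjusted p under 0.05, 2 of them lower and 1 higher, beside the same shares of all rows (4.08% and 3.38%). AT5G10210, next to ANNAT6, averaged 3.14 ± 0.19 in mcu123 and 3.96 ± 0.60 in Col-0, a log2 difference of -0.82 (limma adjusted p = 0.42). ASN3, an asparagine synthetase next to ANNAT7, had a log2 difference of 0.02. RABH1e, a small GTPase, was at 0.61 and the methyl esterase MES5 at -0.89 (limma adjusted p = 0.11 and 0.23). Groups did not overlap for AT5G10210, RABH1e and MES5, 3 of 20 genes, against 1.02% of rows for lower and 0.683% for higher.

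**Figure D5:**
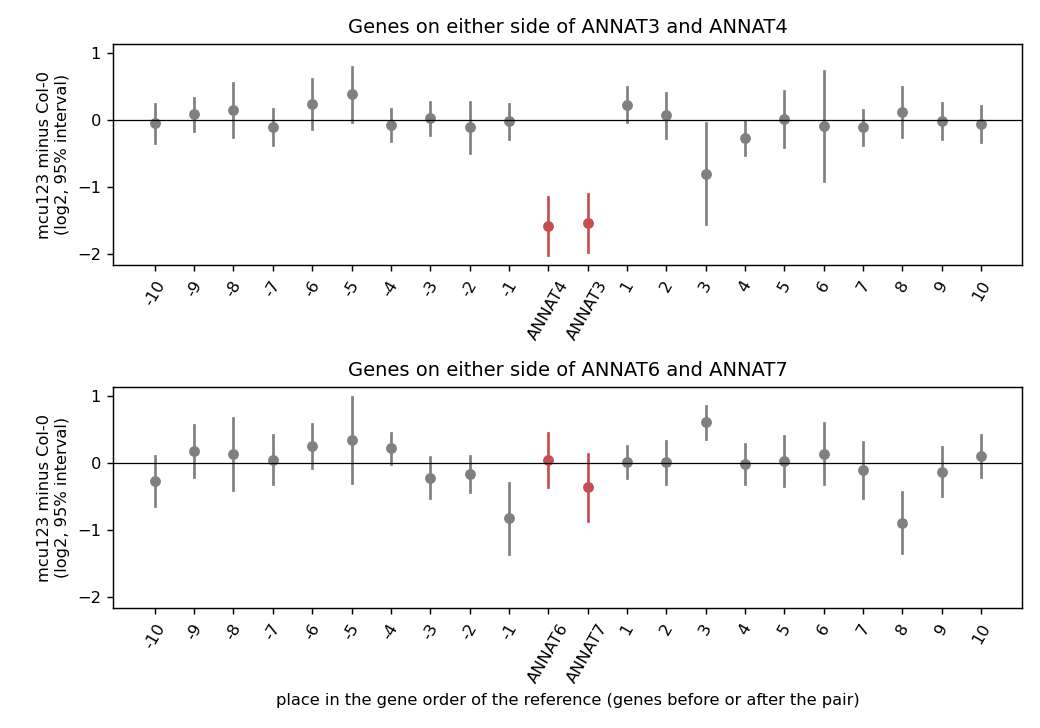
Log2 difference, mcu123 minus Col-0, with 95% intervals for 10 genes on each side of ANNAT3 and ANNAT4 (upper panel) and of ANNAT6 and ANNAT7 (lower panel), in the gene order of the reference; annexins are red and other genes grey. ANNAT4 and ANNAT3 lie at -1.59 and -1.54, and the 20 other genes of the upper panel lie between -0.80 and 0.39.

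Annexins act beside reactive oxygen and salt signalling, so 16 genes of these pathways were listed: the SOS1 sodium exchanger with SOS2, SOS3 and CBL10, the OST1 kinase, the NADPH oxidases RBOHC, RBOHD and RBOHF, the ATP receptor P2K1, the peroxide sensor HPCA1, the channels OSCA1 and TPC1, and the cold regulators ICE1 and CBF1 to CBF3. None of the 16 was called by limma in either direction, 3 had an unadjusted p under 0.05, all lower, where 4.08% of all rows were lower and 3.38% higher at that level. Of the 16, 11 had lower and 5 higher means in mcu123. The median log2 difference was -0.10, beside 0.01 over all rows. Log2 differences ran from -0.51 to 0.38, and RBOHC (0.13), CBL10 (0.12) and SOS3 (0.06) were among those with higher means. The list was chosen with earlier results of these data known, so nothing is read from these counts.

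The 3 of smallest p were RBOHF, SOS2 and RBOHD. RBOHF, an oxidase that makes superoxide at the plasma membrane, averaged 8.53 ± 0.25 in mcu123 and 8.91 ± 0.16 in Col-0 (log2 difference -0.38, 95% interval -0.68 to -0.08). SOS2, a kinase linked to ANNAT4 in salt signalling, averaged 6.02 ± 0.13 in mcu123 and 6.28 ± 0.14 in Col-0 (log2 difference -0.26, 95% interval -0.50 to -0.01). RBOHD, the oxidase of wound and defence signalling, averaged 7.01 ± 0.44 in mcu123 and 7.52 ± 0.38 in Col-0 (log2 difference -0.51, 95% interval -1.003 to -0.016). None of the 3 passed after adjustment, with limma adjusted p of 0.53, 0.64 and 0.65. CBF1, CBF2 and CBF3 had means of at most 2.51 in both genotypes, so little can be said of these cold regulators.

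Markers of other tissues were set beside the annexins. The mean of 3 phloem markers was 4.17 to 5.44 in mcu123 and 5.07 to 5.33 in Col-0, with mcu123 replicate 3 lowest. The mean of 3 xylem markers was 4.001 to 4.595 in mcu123 and 4.240 to 4.494 in Col-0. Photosynthetic shoot markers averaged 2.48 to 3.45 in mcu123 and 2.40 to 3.08 in Col-0. Root markers averaged 6.54 to 6.66 in mcu123 and 6.46 to 6.64 in Col-0. None of these 18 markers was called by limma, and all 4 ranges overlapped between genotypes. At an unadjusted p under 0.05 there were 2 of 18, against 7.46% of all rows in either direction. Those 2 were SMB, a root cap regulator, with a log2 difference of 0.56, and SUC2, the phloem sucrose transporter, at -0.85, or -0.46 without mcu123 replicate 3. Their groups did not overlap, with SMB higher and SUC2 lower on all mcu123 arrays, as in 0.683% and 1.02% of all rows. Both margins were narrow. SMB was at least 4.04 in mcu123 and at most 3.97 in Col-0. SUC2 was at most 5.34 in mcu123 and at least 5.35 in Col-0. The other phloem markers were not lower, with log2 differences of 0.04 for APL and 0.13 for SEOR1. Of the 6 root markers, 2 had higher and 4 lower means in mcu123. The part of SMB and SUC2 in the annexin differences was not tested. Without mcu123 replicate 3 the log2 differences were -1.61 for ANNAT3 and -1.59 for ANNAT4.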

How the data were processed

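Per the submitters' processing notes the authors used RMA, and the deposited values are log2 intensities. The sorted values of all 10 deposited columns were identical, so a shift shared by all genes cannot be read. No source used here names the array model, probe positions or genome build, and signal shared between annexin paralogs was not examined. Of 27826 locus codes, 27241 were in the RefSeq table of TAIR10.1, used for names and gene order. MCU names came from general knowledge.

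The genotype contrast was fitted over all rows in limma 3.58.1 under R 4.3.3 (lmFit, eBayes), two-sided, with Benjamini-Hochberg adjustment, and the fit was tested on simulated data. No row was dropped. Correlations used deviations from genotype means.

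Members and lists were chosen with earlier results of these data known. The naming rule took all members, the MCU genes, called partners or else the 3 of smallest p, called and nearest neighbours, and the 5 genes most like ANNAT3 or ANNAT4. AT2G38790, AT2G38800, MVD1, RABH1e and MES5 were named after their values were seen. Alternatives were a filter on dim rows, cyclic loess, a trended robust prior, array weights, a replicate block and leaving out each array.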

Additional observations from a re-analysis of the deposited data

Results flagged for a closer look

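An array was taken as far from the others above a Dixon ratio of 0.71, and none of the 16 sets of 5 arrays of the annexins held one. The closest to that limit was ANNAT1 in mcu123 replicate 2, at 0.68 (8.68, others 8.40 ± 0.04). ANNAT4 was at 0.62 in Col-0 replicate 5 (5.19, others 5.59 ± 0.08) and at 0.60 in mcu123 replicate 1 (4.65, others 3.74 ± 0.24). Of 118 sets examined, 6 held such an array, where chance gives about 1 in 20, or 5.9. Divided by the whole range of the set, the distance from such an array to its nearest neighbour was 0.7981 for SOS3 in mcu123 replicate 3 (6.83, others 6.06 ± 0.07) and 0.7455 for HPCA1 in the same array (7.67, others 6.99 ± 0.08). It was 0.8191 for SUC2, the phloem sucrose transporter, in mcu123 replicate 3 (3.23, others 5.16 ± 0.16). In mcu123 replicate 2 it was 0.8191 for P2K1 (3.99, others 4.32 ± 0.03) and 0.7657 for the root hair gene COBL9 (5.71, others 5.35 ± 0.05). SHR in Col-0 replicate 5 was at 0.8253 (5.99, others 5.70 ± 0.03). The array mcu123 replicate 3, where SOS3, HPCA1 and SUC2 stood apart, had the lowest limma array weight (0.394, others 0.644 to 1.77). Its mean correlation with the arrays of its genotype was also the lowest (0.9721). Without it 22 rows were called, against 12 in the main fit, and ANNAT3 and ANNAT4 were both called.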

How the results depend on the processing

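The count of annexins called lower was 2 in all 5 fits that kept every array, and 0 to 2 with single arrays left out. All fits reuse the contrast that chose the family. For ANNAT3 and ANNAT4 they show only how values depend on the settings and are no separate support. The count called higher, and those of partner and neighbouring genes called, were 0 in all 15 fits. The count of rows called, 12 as reported, was 7 without the dimmest 30% of rows, which kept 5 of 8 annexins, 35 with a trended and robust prior, 30 with array weights and 5 to 22 with single arrays left out. The cause was not tested. The replicate block gave 8 rows, with 2 annexins called lower, and changed no count of annexins. After subtraction of genotype means, same-numbered arrays of the different genotypes correlated at -0.21 to 0.09. Compared only with arrays of the other genotype, 0 of 10 arrays were closest to their own number. Whether same-numbered arrays shared a growth batch was not tested. The median difference of ANNAT3 and ANNAT4 minus that of the other annexins was -1.59 as reported and -1.69 to -1.45 over the 15 fits. The correlation of ANNAT3 and ANNAT4 was 0.76 to 0.88 over 13 settings, of which the one without mcu123 replicates 1 and 2 was added after seeing the data. AT1G16670 was not called in 11 of 15 fits, at -1.07 to -0.90 over all 15. Promoter and protein comparisons were not run.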
